A study of Marchantia polymorpha with 12 samples.

Results

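MpLOX3 (Mp3g06610), MpLOX5 (Mp1g21930) and MpLOX9 (Mp2g20300) are 3 of the 16 genes with a lipoxygenase symbol among the 19421 genes counted in thalli of the liverwort Marchantia polymorpha. They were chosen by identifier as lipoxygenases with low transcript levels that were not raised in wounded Tak-1 thalli. The choice therefore used measured values, the level and the Tak-1 wound response, and these are given as a description without a test. All 3 genes passed the filter on low counts, so every one of them is reported. Each was listed with 1 transcript, of 4142 bases for MpLOX3, 4485 bases for MpLOX5 and 5247 bases for MpLOX9, so there were no isoforms to compare.

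RNA was sequenced from thalli in 4 groups of 3 libraries: wounded and intact (control) thalli of the line labelled Mperf15ko, and wounded and intact thalli of Tak-1, the male laboratory accession. All thalli were 14 days old and had been grown from gemmae on agar medium. Wounded thalli were collected 1 h after their blades were cut. Each library came from an independent biological replicate of 12 plants. The labels give neither the lesion of Mperf15ko nor the number of lines or clones behind it, and they put no other allele or treatment in any group.

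Lipoxygenases are iron-containing enzymes that add oxygen to polyunsaturated fatty acids, the entry step of oxylipin synthesis. The hydroperoxides they make are converted further by enzymes such as the CYP74 cytochromes P450, and in land plants one branch leads to jasmonate-type signals. Marchantia uses the precursor dinor-OPDA, perceived by the receptor MpCOI1 with the repressor MpJAZ, in place of jasmonoyl-isoleucine. The names table used here gives no substrate or product for the individual MpLOX genes, and no protein or promoter sequence was at hand, so none is shown.

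Estimated reads per library, in units of 1000000, ran from 17.2 to 30.4. MpERF15, the AP2/ERF transcription factor named in the mutant label, was at 17.1 to 40.6 TPM in wounded Mperf15ko, against 20.1 to 34.7 TPM in wounded Tak-1. It was at 1.68 to 3.40 TPM in control Mperf15ko and 1.498 to 1.83 TPM in control Tak-1. Its transcript level therefore cannot tell the lines apart, and each direction between them relies on the submitters' labels. Of 24 marker genes listed for organs and cell types of the thallus, 14 were found by symbol. For gametangia and germ line 2 were found. The sperm protamine MpPRM was listed at 0 in both wounded groups and in control Tak-1. The other, MpDUO1, was at 0.732 to 1.03 TPM in wounded Mperf15ko and 0.538 to 0.671 TPM in wounded Tak-1. It was at 0.273 to 0.328 TPM in control Mperf15ko and 0.117 to 0.285 TPM in control Tak-1. No rhizoid marker was matched by symbol, so their levels are not known here.

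Levels are given as the deposited TPM, a transcript abundance scaled by transcript length and library total, which may be compared between genes. Over the 12 libraries, MpLOX3 ranged from 2.29 to 3.95 TPM with a median of 3.08 TPM, and MpLOX9 from 2.08 to 3.92 TPM with a median of 2.68 TPM. MpLOX5 was lower, at 0.37 to 1.56 TPM with a median of 0.74 TPM. By mean TPM, 22.5%, 21.2% and 7.98% of the 14246 tested genes lay below MpLOX3, MpLOX9 and MpLOX5. The median tested gene was at 13.1 TPM.

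Within the family the ranks varied with the library. MpLOX3 held places 5 to 9 by TPM among the 16 lipoxygenases, MpLOX9 places 6 to 10, and MpLOX5 places 12 to 14. The nearest other lipoxygenase in mean level was MpLOX7 for both MpLOX3 and MpLOX9, at 2.47 TPM, and MpLOX13 for MpLOX5, at 0.71 TPM. The choice named no numerical limit. In the Tak-1 wound response the nearest other genes were MpLOX7, with a log2 fold change of -0.35 (SE 0.22), and MpLOX10, with 1.22 (SE 0.15). MpLOX7 and MpLOX13 were also low and not called in wounded Tak-1. MpLOX11 (1.65 TPM, log2 fold change -0.61) and MpLOX12 (2.38 TPM, -0.86) were low as well and were lower in wounded than in control Tak-1. The 3 genes are thus not the whole of the class of low lipoxygenases that were not raised.

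MpLOX5 was the gene of the 3 that was called between the lines. Its transcript was 0.482 times as abundant in Mperf15ko as in Tak-1 in wounded thalli, 0.545 times in control thalli and 0.513 times over both conditions. In TPM all 6 Mperf15ko libraries lay below all 6 Tak-1 libraries. In wounded thalli, MpLOX5 was at 0.736, 0.579 and 0.396 TPM in Mperf15ko replicates 1 to 3, against 0.873, 1.56 and 1.17 TPM in Tak-1. In control thalli it was at 0.492, 0.515 and 0.370 TPM in Mperf15ko, against 0.741, 0.803 and 0.977 TPM in Tak-1. The gap between the lines was narrow at its edge, 0.736 TPM in the highest Mperf15ko library against 0.741 TPM in the lowest Tak-1 library. In CPM, counts scaled to library size, the lines overlapped. Mperf15ko wounded replicate 1 was at 2.34 CPM, above Tak-1 control replicate 1 at 2.15 CPM. The share of all genes that separate the lines in TPM was not counted.

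**Figure D1:**
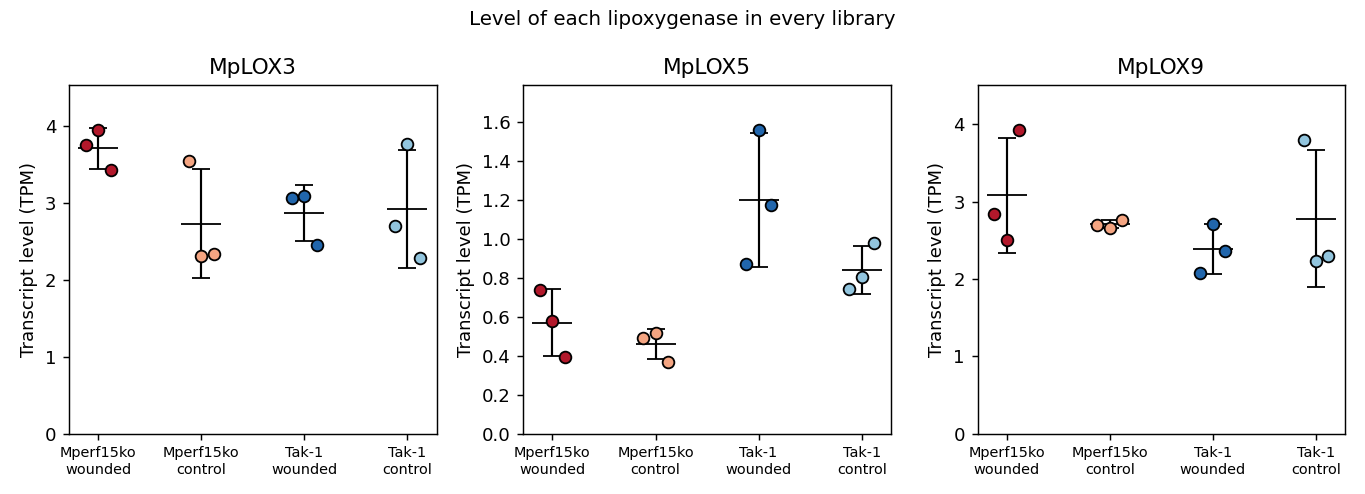
Transcript level (TPM, vertical axis from 0) of MpLOX3, MpLOX5 and MpLOX9 in each of the 12 libraries. Points are libraries in replicate order, long dashes are group means and bars are SD (n = 3). MpLOX5 lies between 0.37 and 0.736 TPM in the Mperf15ko libraries and between 0.741 and 1.56 TPM in the Tak-1 libraries, while the groups of MpLOX9 overlap. In CPM, which is not shown, the MpLOX5 values of the lines overlap.

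The means of MpLOX5 were 0.570 ± 0.170 TPM in wounded Mperf15ko and 1.2 ± 0.342 TPM in wounded Tak-1 (SD, n = 3 each). They were 0.459 ± 0.0779 TPM in control Mperf15ko and 0.840 ± 0.122 TPM in control Tak-1. From high to low, the order was wounded Tak-1, control Tak-1, wounded Mperf15ko, control Mperf15ko. Ranges of neighbours in that order overlapped within each line. Fewer cells expressing the gene and less RNA per cell cannot be told apart in such bulk samples.

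Differences were tested with edgeR on the estimated counts of all 14246 genes, with p-values adjusted over all of them, and a gene was called at an adjusted p under 0.05. The comparison of the lines averaged over both conditions is orthogonal to the Tak-1 wound response that chose the genes. There MpLOX5 was lower in Mperf15ko by a log2 fold change of -0.96 (SE 0.21, edgeR adjusted p = 0.0023), with a 95% interval of -1.41 to -0.52. As a ratio to the Tak-1 level the interval is 0.376 to 0.699. It was 1 of the 3 genes called, where 41.4% of all tested genes were called in this comparison, 20.1% lower and 21.3% higher in Mperf15ko. A call by itself was therefore common in this comparison, and at least 2-fold differences in either direction were seen for 8.42% of genes.

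Each condition on its own gave a similar value with a less secure call. These comparisons use the wounded or the control Tak-1 libraries whose contrast chose the genes, so they are not independent of the choice, and their calls are no separate support. In wounded thalli MpLOX5 was lower in Mperf15ko by a log2 fold change of -1.05 (SE 0.29, edgeR adjusted p = 0.020, interval -1.68 to -0.42). It was again 1 of 3 genes called, against 23.5% of all genes, 11.7% lower and 11.8% higher. The call was lost without Tak-1 wounded replicate 2, which held the highest level (-0.86, adjusted p = 0.093 in edgeR), without Mperf15ko wounded replicate 2 (-1.10, adjusted p = 0.0504) and without Mperf15ko wounded replicate 3 (-0.85, adjusted p = 0.058). In control thalli the log2 fold change was -0.88 (SE 0.30, edgeR adjusted p = 0.040, interval -1.51 to -0.24), with 1 of 3 genes called against 28.1% of all genes, 14.6% lower and 13.6% higher.

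The call in control thalli was the weakest of these. It was lost when Tak-1 control replicate 2 (-0.89) or 3 (-0.69) was left out, and when Mperf15ko control replicate 1 (-0.90), 2 (-0.94) or 3 (-0.74) was. It was also lost without Tak-1 wounded replicate 3 or Mperf15ko wounded replicate 2, both at -0.86. These libraries are not compared here and enter through the shared filter, library scaling, estimate of spread and adjustment. The comparison over both conditions kept its call in all 20 alternatives, including each of the 12 libraries left out in turn, with values of -1.08 to -0.85 and adjusted p of 0.00014 to 0.012.

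The depth behind MpLOX5 was small. It had 39, 36 and 21 estimated reads in wounded Mperf15ko, against 47, 109 and 87 in wounded Tak-1. Control Mperf15ko libraries held 36, 33 and 24 reads, against 69, 53 and 76 in control Tak-1. Counting error alone, as the coefficient of variation of a single library, was 16.0% to 21.8% in Mperf15ko and 9.58% to 14.6% in Tak-1. The fitted biological coefficient of variation of the gene was 0.218. Its estimated counts were exactly whole numbers as deposited, with no tolerance, in 11 of 12 libraries.

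MpLOX3 and MpLOX9 were not called between the lines. MpLOX3 was at 3.76, 3.95 and 3.43 TPM in wounded Mperf15ko, against 3.07, 3.10 and 2.46 TPM in wounded Tak-1. In control thalli it was at 3.55, 2.31 and 2.34 TPM in Mperf15ko, against 2.71, 3.78 and 2.29 TPM in Tak-1. The wounded groups did not overlap and the control groups did, and the share of all genes with such a gap was not counted. Over both conditions the log2 fold change was 0.15 (SE 0.15, edgeR adjusted p = 0.44, interval -0.17 to 0.46). In wounded thalli it was 0.38 (SE 0.21, adjusted p = 0.19, interval -0.06 to 0.83), and in control thalli -0.09 (SE 0.21, adjusted p = 0.79, interval -0.53 to 0.35).

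MpLOX9 was at 2.84, 2.50 and 3.92 TPM in wounded Mperf15ko, against 2.08, 2.72 and 2.37 TPM in wounded Tak-1. In control thalli it was at 2.71, 2.66 and 2.76 TPM in Mperf15ko, against 3.803, 2.24 and 2.30 TPM in Tak-1. The groups overlapped in both conditions, and Tak-1 control replicate 1 stood above the other libraries of its group. The log2 fold change over both conditions was 0.17 (SE 0.13, edgeR adjusted p = 0.31, interval -0.11 to 0.45). It was 0.37 (SE 0.19, adjusted p = 0.16, interval -0.03 to 0.77) in wounded thalli and -0.03 (SE 0.18, adjusted p = 0.92, interval -0.42 to 0.36) in control thalli.

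The interval of MpLOX5 over both conditions, ending at -0.52, lay apart from those of MpLOX3 and MpLOX9, which began at -0.17 and -0.11. The difference between the genes was not tested itself. As a ratio within a library, MpLOX5 to MpLOX3 had a median of 0.152 in the 6 Mperf15ko libraries (0.115 to 0.223) and 0.356 in the 6 Tak-1 libraries (0.213 to 0.502). The ratio of MpLOX5 to MpLOX9 had a median of 0.188 in Mperf15ko (0.101 to 0.260) and 0.422 in Tak-1 (0.195 to 0.573). Both ratios were lower in most Mperf15ko libraries, and the ranges of the lines overlapped. The ratio of MpLOX3 to MpLOX9 had medians of 1.09 in both lines.

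**Figure D2:**
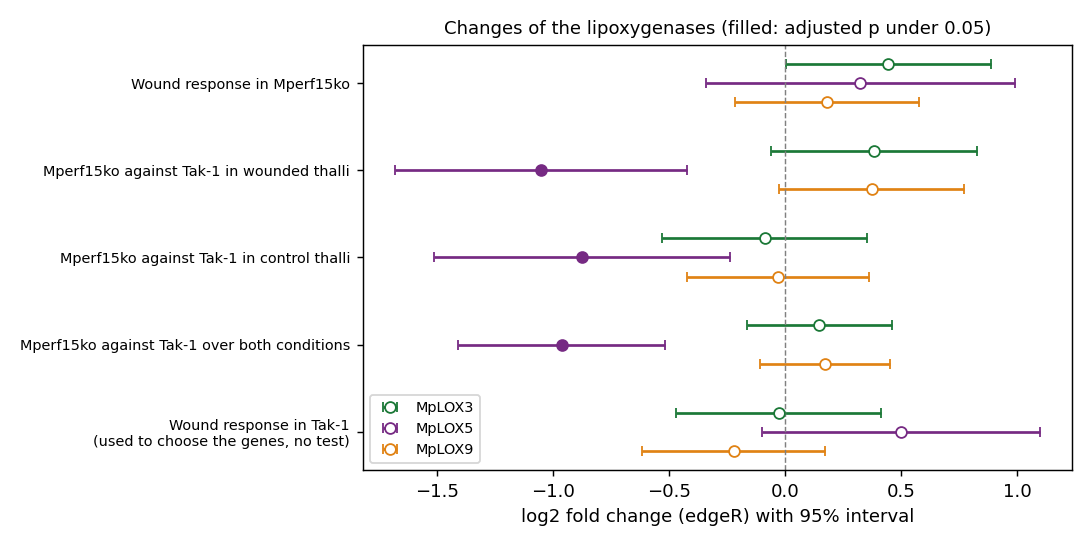
Log2 fold changes (horizontal axis, edgeR) of MpLOX3, MpLOX5 and MpLOX9 in 4 tested comparisons and in the Tak-1 wound response, which served to choose the genes and was not tested. Bars are 95% intervals and filled points passed an adjusted p under 0.05. MpLOX5 is filled at -1.05, -0.88 and -0.96 in the 3 comparisons of the lines, and the other points are open.

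The wound response in Mperf15ko sets wounded against control Mperf15ko libraries. The Tak-1 libraries enter it through the shared filter, library scaling, estimate of spread and adjustment. The low level of the genes, part of the choice, was seen in these libraries too. None of the 3 was called there by edgeR, DESeq2 or limma-voom, beside 43.6% of all genes called by edgeR. A difference between the wound responses of the lines was called for 1.07% of all genes. The missing calls are therefore no separate support beside the choice made in Tak-1. Of the 3, 1 gene, MpLOX3, had an unadjusted p under 0.05 with each tool. MpLOX3 was at 3.76, 3.95 and 3.43 TPM in wounded Mperf15ko, against 3.55, 2.31 and 2.34 TPM in control Mperf15ko. The wounded libraries were higher than 2 of the 3 control libraries, and control replicate 1 lay within their range. The log2 fold change was 0.44 (SE 0.21, edgeR adjusted p = 0.098, interval 0.00 to 0.89), which is a fold of 1.36 with an interval of 1.00 to 1.85. Without Mperf15ko control replicate 1 the change was 0.66 and was called (edgeR adjusted p = 0.024).

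For MpLOX5 the same comparison set 0.736, 0.579 and 0.396 TPM in wounded Mperf15ko against 0.492, 0.515 and 0.370 TPM in control Mperf15ko, with overlapping groups. The log2 fold change was 0.32 (SE 0.31, edgeR adjusted p = 0.43, interval -0.34 to 0.99). MpLOX9 was at 2.84, 2.50 and 3.92 TPM in wounded Mperf15ko, against 2.71, 2.66 and 2.76 TPM in control Mperf15ko. Its log2 fold change was 0.18 (SE 0.19, edgeR adjusted p = 0.46, interval -0.22 to 0.58). The intervals thus leave room for a rise of up to 1.99-fold in MpLOX5 and 1.49-fold in MpLOX9. In this fit a 2-fold rise lies outside both intervals, narrowly for MpLOX5. The MpLOX5 value was 0.53 (SE 0.31) without Mperf15ko wounded replicate 3 and 0.07 (SE 0.33) without replicate 1 of that group. A 2-fold rise of MpLOX5 is therefore not excluded in every setting. Over all tested genes, 16.1% differed at least 2-fold in this comparison, in either direction.

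In Tak-1, where the genes were chosen as not raised, the log2 fold changes after wounding were -0.03 (SE 0.21) for MpLOX3, 0.50 (SE 0.28) for MpLOX5 and -0.22 (SE 0.18) for MpLOX9. Of the 3 genes MpLOX5 thus had the most positive value in Tak-1, with its highest level in wounded replicate 2. The value of MpLOX9 was 0.02 without Tak-1 control replicate 1. The wound response of Mperf15ko minus that of Tak-1 was 0.47 (SE 0.29) for MpLOX3, -0.18 (SE 0.42) for MpLOX5 and 0.40 (SE 0.26) for MpLOX9. With 1 library left out, the value of MpLOX3 ran from 0.21 to 0.66, lowest without Tak-1 control replicate 2. That of MpLOX9 ran from 0.16 to 0.49, lowest without Tak-1 control replicate 1, and that of MpLOX5 from -0.46 to 0.0016. These differences contain the response used in the choice and were not tested. Of all genes, 46.2% were called after wounding in Tak-1, 23.4% higher and 22.8% lower. For the difference between the responses it was 1.07%, 0.4% higher and 0.667% lower. That count of 152 genes was 61 without Tak-1 wounded replicate 2, 65 without Tak-1 wounded replicate 3, 73 without Mperf15ko control replicate 3, 101 without Tak-1 control replicate 2, 324 without Mperf15ko control replicate 1 and 472 with DESeq2.

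The group orders of MpLOX3 and MpLOX9 followed no line or treatment. MpLOX3 averaged 3.71 ± 0.262 TPM in wounded Mperf15ko, 2.73 ± 0.707 TPM in control Mperf15ko, 2.87 ± 0.362 TPM in wounded Tak-1 and 2.92 ± 0.766 TPM in control Tak-1 (SD, n = 3 each). MpLOX9 averaged 3.09 ± 0.743 TPM in wounded Mperf15ko, 2.71 ± 0.0497 TPM in control Mperf15ko, 2.39 ± 0.320 TPM in wounded Tak-1 and 2.78 ± 0.885 TPM in control Tak-1. Ranges of all neighbours in these orders overlapped. MpLOX3 had 136 to 239 and MpLOX9 132 to 417 estimated reads per library. By the same exact criterion the deposited counts of MpLOX9 were whole in every library, whereas those of MpLOX3 had a fractional part in 11 of 12. Fractional counts can arise where reads are shared among similar transcripts, so the level of MpLOX3 is less certain.

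The summed level of the 3 genes stayed within 5.47 and 7.75 TPM over all libraries. The family total was higher in wounded than in control thalli of both lines. The genes were chosen as low and not raised in wounded Tak-1. A level sum and a smaller share in Tak-1 therefore largely follow from the choice. The largest part of the wounded totals was MpLOX2, at 328 TPM in wounded Mperf15ko and 257 TPM in wounded Tak-1. It was at 43.4 TPM in control Mperf15ko and 45.3 TPM in control Tak-1. All 16 lipoxygenases together came to 475 ± 58.7 TPM in wounded Mperf15ko and 159 ± 15.7 TPM in control Mperf15ko, and to 489 ± 61.8 TPM in wounded Tak-1 and 217 ± 4.13 TPM in control Tak-1 (SD, n = 3 each). The share of the 3 genes in that total was 1.48% to 1.71% in wounded Mperf15ko, against 3.54% to 3.83% in control Mperf15ko. It was 1.19% to 1.43% in wounded Tak-1, against 2.63% to 3.32% in control Tak-1. MpLOX5 by itself made up 0.0756% to 0.150% in wounded Mperf15ko, against 0.208% to 0.288% in wounded Tak-1. In control thalli its shares overlapped, at 0.239% to 0.354% in Mperf15ko and 0.339% to 0.461% in Tak-1.

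**Figure D3:**
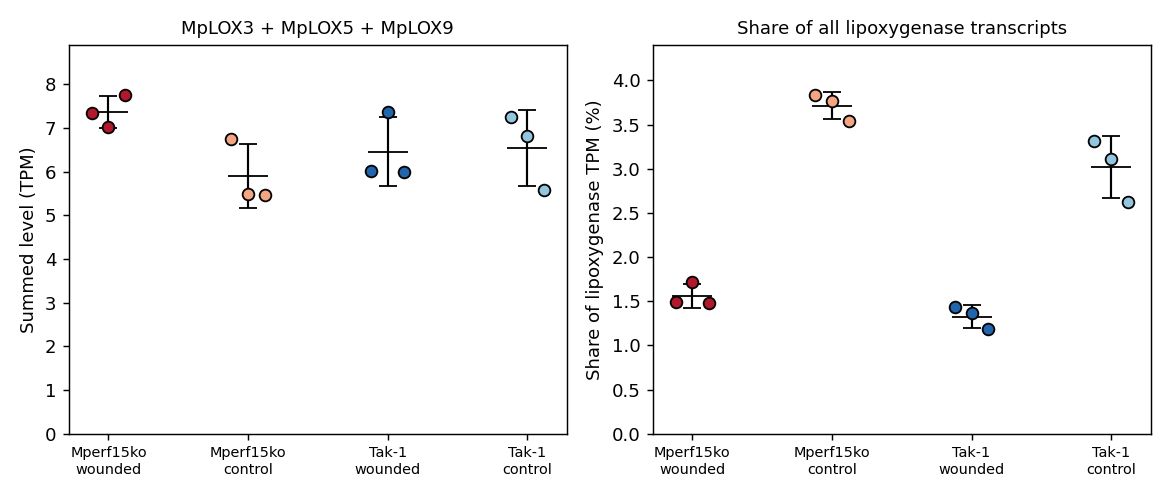
Summed level of MpLOX3, MpLOX5 and MpLOX9 (left, TPM) and its share of the summed TPM of all 16 lipoxygenases (right, %), with both axes from 0. Points are libraries, long dashes are means and bars are SD (n = 3). The sum lies between 5.47 and 7.75 TPM in all 12 libraries. The share lies at 1.71% or below in wounded thalli and at 2.63% or above in control thalli. The genes were chosen as low and not raised in wounded Tak-1.

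The lower level of MpLOX5 in Mperf15ko was shared by other lipoxygenases. Over both conditions 6 of the 12 other tested members of the family were lower in Mperf15ko, 1 was higher and 5 were not called. Among all tested genes 20.1% were lower and 21.3% higher. The median log2 fold change of the 12 was -0.27, against 0.01 over all tested genes. The counts of the 12 were the same with RLE and upper quartile scaling. MpLOX5, at -0.96, stood between MpLOX8 (-1.05, SE 0.19) and MpLOX14 (-0.52). MpLOX1 (-1.94, SE 0.11) and MpLOX11 (-1.91, SE 0.15) had the lowest values and MpLOX4 was at -1.16 (SE 0.15).

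The members of the family that were lower in Mperf15ko differed in their wound responses. MpLOX8, the nearest to MpLOX5 in the genotype difference, averaged 1.69 ± 0.399 TPM in wounded Mperf15ko and 0.431 ± 0.154 TPM in control Mperf15ko (SD, n = 3 each). That response was a log2 fold change of 1.96 (SE 0.29, edgeR adjusted p = 5.7e-05), where MpLOX5 had 0.32. MpLOX11, at 0.626 ± 0.114 TPM in wounded Mperf15ko and 0.732 ± 0.101 TPM in control Mperf15ko, was not called (-0.21, SE 0.23, edgeR adjusted p = 0.49). In the wound response of Mperf15ko, 6 of the 12 other members rose, 2 fell and 4 were not called, beside 23.5% of all genes higher and 20.1% lower. The median of the 12 was 0.79, against -0.02 over all tested genes.

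**Figure D4:**
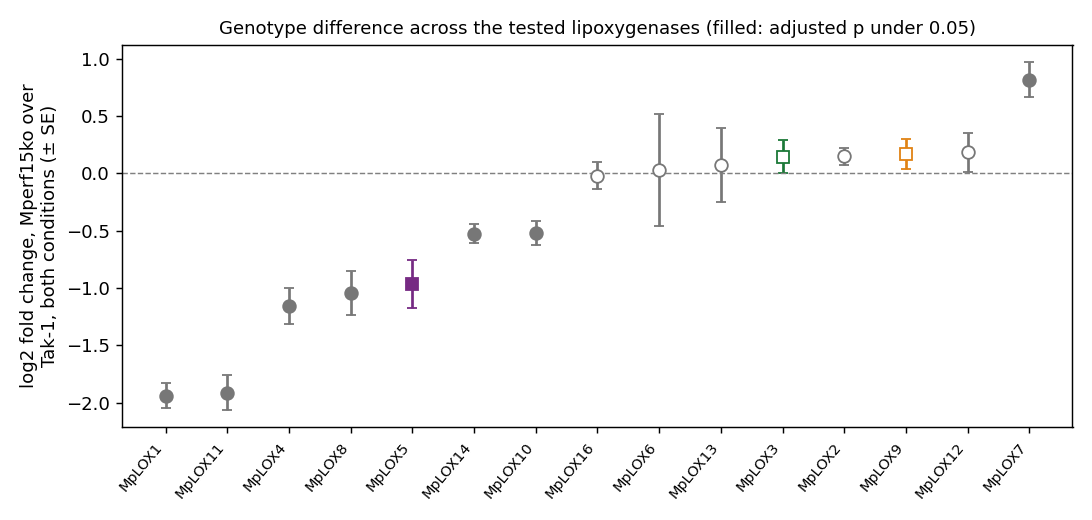
Log2 fold change of Mperf15ko over Tak-1 averaged over both conditions (vertical axis, edgeR, ± SE) for the 15 tested lipoxygenases, sorted by value. Squares are MpLOX3, MpLOX5 and MpLOX9, circles the other lipoxygenases, and filled symbols passed an adjusted p under 0.05. MpLOX5 is filled at -0.96 next to MpLOX8 at -1.05, and MpLOX3 and MpLOX9 are open at 0.15 and 0.17.

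MpLOX7 and MpLOX13, the genes nearest in level, showed other patterns. MpLOX7 was at 3.33 ± 1.06 TPM in wounded Mperf15ko and 1.57 ± 0.280 TPM in wounded Tak-1, and at 2.96 ± 0.365 TPM in control Mperf15ko and 2.01 ± 0.225 TPM in control Tak-1 (SD, n = 3 each). It was the 1 lipoxygenase called as higher in Mperf15ko over both conditions (0.82, SE 0.15, edgeR adjusted p = 0.00086). MpLOX13 was at 0.523 ± 0.347 TPM in wounded Mperf15ko and 0.457 ± 0.156 TPM in wounded Tak-1, and at 0.912 ± 0.225 TPM in control Mperf15ko and 0.948 ± 0.443 TPM in control Tak-1. It was not called between the lines over both conditions (0.07, SE 0.32, edgeR adjusted p = 0.87), with an SE that was larger than that of MpLOX5 at a like level.

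Beyond the lipoxygenases, 18 genes of the oxylipin route were listed by symbol, among them CYP74 enzymes, fatty acid desaturases that supply polyunsaturated substrates, and the signalling genes MpCOI1, MpJAZ, MpNINJA and MpTPL. Over both conditions 5 were lower in Mperf15ko, 3 were higher and 10 were not called. Beside 20.1% lower and 21.3% higher among all genes, this count lies near the background. With upper quartile scaling 8 were lower and 2 higher, beside 3300 lower and 2491 higher among all 14246 genes, so the reading depends on the scaling. The value most like that of MpLOX5 was MpGH3B, of a family that conjugates hormones to amino acids, at -0.95 (SE 0.20, edgeR adjusted p = 0.0022), and the CYP74 gene MpCYP74N2 was at -0.49 (SE 0.16, adjusted p = 0.030). In the wound response of Mperf15ko 8 rose, 6 fell and 4 were not called, beside 23.5% higher and 20.1% lower among all genes. With upper quartile scaling 6 rose and 7 fell, beside 2716 higher and 4192 lower among all 14246 genes. MpJAZ, the repressor, was at 109 TPM in wounded Mperf15ko and 17.8 TPM in control Mperf15ko on average, a log2 fold change of 2.61 (SE 0.087, edgeR adjusted p = 5.1e-11), beside values of 0.18 to 0.44 for the 3 lipoxygenases.

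Some markers of thallus cell types also differed between the lines. Of 13 tested markers 6 were lower in Mperf15ko over both conditions and 1 was higher (6 and 0 with upper quartile scaling), and 6 were not called. The 7 called of 13 stand beside 41.4% of all genes, 20.1% lower and 21.3% higher. The 4 markers found for oil body cells, the secretory idioblasts of the thallus, were MpSYP12B, MpERF13, MpC1HDZ and MpABCG1. Their summed level was 17.05 to 26.4 TPM in wounded Mperf15ko, against 28.3 to 35.6 TPM in wounded Tak-1, and 7.87 to 12.6 TPM in control Mperf15ko, against 11.3 to 17.6 TPM in control Tak-1. Of these, MpC1HDZ (-0.42) and MpABCG1 (-0.62) were lower over both conditions, and MpSYP12B (-0.33) and MpERF13 (-0.58) were not called. In control thalli the sums overlapped and 0 of the 4 were called (1 with upper quartile scaling). MpC1HDZ, at 18.5 TPM in wounded Mperf15ko and 26.3 TPM in wounded Tak-1, made up most of the wounded sums. Over both conditions 2 of 3 gemma cup markers and 1 of 2 for meristem and notch were also lower. For air chamber and epidermis 1 of 3 was lower and 1 higher. No difference particular to oil body cells is shown. The 14 markers together summed to 178 to 212 TPM in wounded Mperf15ko, 191 to 227 TPM in wounded Tak-1, 130 to 137 TPM in control Mperf15ko and 120 to 172 TPM in control Tak-1. The part of cell type in the MpLOX5 difference was not tested.

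The genes most like each lipoxygenase were sought by Pearson's r of log2 CPM (counts scaled to library size) over the 12 libraries. The libraries fall into the 4 groups, and r was not computed within groups. For MpLOX5 they were Mp8g13670 (r = 0.95), MpWRKY3 (Mp5g05560, r = 0.93) and Mp8g03220 (r = 0.93). MpWRKY3, of a transcription factor family active in plant stress responses, was at 0.186 ± 0.117 TPM in wounded Mperf15ko and 2.23 ± 0.517 TPM in wounded Tak-1, and at 0.0774 ± 0.0966 TPM in control Mperf15ko and 0.773 ± 0.260 TPM in control Tak-1 (SD, n = 3 each). Its log2 fold change of Mperf15ko over Tak-1 in both conditions together was -3.44 (SE 0.41), given as a description because the gene was picked for its likeness to MpLOX5 in these libraries. Mp8g13670 was at 1.59 ± 0.729 TPM in wounded Mperf15ko and 3.25 ± 0.771 TPM in wounded Tak-1, and at 1.44 ± 0.285 TPM in control Mperf15ko and 2.04 ± 0.390 TPM in control Tak-1.

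For MpLOX3 the most alike genes were Mp2g05140 (r = 0.85), Mp1g08060 (r = 0.83) and Mp2g26020 (r = 0.81). For MpLOX9 they were Mp1g19350 (r = 0.82), Mp1g01290 (r = 0.81) and Mp1R-MYB14 (r = 0.81), a MYB-type gene. These values were lower than for MpLOX5. The lists depended on the measure: ranked by Spearman's rho, 0 of the 3 genes remained for MpLOX3 and for MpLOX5, and 1 of 3 for MpLOX9.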

How the data were processed

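Per the file headers, the deposited files were Salmon tables with 1 row for each of 24751 transcripts, giving TPM and an estimated count of reads for each library. CASAVA and Salmon 0.7.2 are listed in the submitters' processing notes, with no role for either. No source used here gives the index, the genome build or the options. Deposited TPM was summed per gene. Deposited estimated counts were summed per gene and rounded. After filterByExpr, 14246 genes were fitted as 4 group means over 12 libraries with edgeR 4.0.16 (TMM, robust glmQLFit, glmQLFTest) in R 4.3.3, adjusted by Benjamini-Hochberg. SE came from the fold change and the F statistic, and 95% intervals from SE and the moderated degrees of freedom. DESeq2 1.42.0 and limma 3.58.1 (voom) served as alternatives, with other scalings, filters, features and samples. The pipeline was tested on simulated counts.

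Libraries of a group were not copies of each other (chi-square per gene 15.6 to 62.9). P-values measure the spread between replicates that the labels call independent. Names came from a table of assembly MpTak2_v7.1, in which 17386 gene IDs (89.5%) matched a locus tag by number. Named genes were the 3 lipoxygenases, the LOX, route and marker lists by symbol, MpERF15, and the 3 genes most alike to each lipoxygenase. The genes and lists were chosen with earlier results of these data known.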

Additional observations from a re-analysis of the deposited data

How the results depend on the processing

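With 3 libraries a group and 21 to 109 reads per library for MpLOX5, depth and replicate number limit what could be called. All alternatives gave MpLOX5 a lower level in Mperf15ko. Its call over both conditions was kept throughout (-1.08 to -0.85 with a library left out). In control thalli the call was lost with limma-voom (-0.84), transcripts as features (-0.86) and the replicate block (-0.89, edgeR adjusted p = 0.056), and values ran from -0.9996 to -0.69 with a library left out. In wounded thalli it was lost with transcripts as features (-1.07), and values ran from -1.31 to -0.85 with a library left out. The cause of these losses was not tested. The wound response of MpLOX3 in Mperf15ko was 0.32 to 0.66 with a library left out, and the higher end was called. In the other tested comparisons of the 3 genes no alternative changed a call. Upper quartile scaling shifted the median of all genes by -0.12 in the wound response of Mperf15ko and by -0.13 in that of Tak-1, and changed no call of the 3 genes.

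Replicate numbers did not pair the libraries: 4 of 18 same-numbered pairs correlated above 0.1 in their deviations from group means (-0.31 to 0.23), and 4 of 12 libraries correlated best with their own number. Apart from the MpLOX5 call in control thalli, the replicate block changed no call of the 3 genes. Genes called between the lines in control thalli were 4010, or 2565 without Mperf15ko control replicate 3. In wounded thalli they were 3352, or 1832, 2210 and 2096 without Tak-1 wounded replicate 2 or 3 or Mperf15ko wounded replicate 2.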

Other observations

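The genes of this section were named after their values were seen. Mp3g06600, which stands next to MpLOX3 in the gene order of the names assembly, was raised by wounding in both lines. It was at 74.3 ± 29.3 TPM in wounded Mperf15ko and 1.27 ± 0.647 TPM in control Mperf15ko, and at 57.8 ± 10.7 TPM in wounded Tak-1 and 1.63 ± 0.356 TPM in control Tak-1 (SD, n = 3 each). Its log2 fold change was 5.88 (SE 0.40, edgeR adjusted p = 3.2e-07) in Mperf15ko and 5.14 (SE 0.37, adjusted p = 5.7e-07) in Tak-1, higher in all 3 wounded libraries of each line. The values of MpLOX3 were 0.44 in Mperf15ko, which was not called, and -0.03 in Tak-1. The second gene on that side, Mp3g06590, also rose, by 2.33 (SE 0.55) in Mperf15ko and 2.91 (SE 0.61) in Tak-1. On the other side MpPOD23 (-0.31, SE 0.11) and Mp3g06660 (-0.66, SE 0.09) fell in Mperf15ko and were not called in Tak-1. Among all genes 23.5% rose in Mperf15ko and 23.4% in Tak-1.

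Near MpLOX5, the genes on either side, Mp1g21920 and Mp1g21940, were not called between the lines over both conditions (0.06, SE 0.10, and -0.06, SE 0.06, edgeR adjusted p = 0.67 and 0.45). The second gene on one side, MpCupin4 (Mp1g21950), was higher in Mperf15ko, opposite in direction to MpLOX5. It was at 6.37 ± 0.526 TPM in wounded Mperf15ko and 3.83 ± 0.331 TPM in wounded Tak-1, and at 6.98 ± 2.10 TPM in control Mperf15ko and 2.04 ± 0.360 TPM in control Tak-1. Its log2 fold change over both conditions was 1.26 (SE 0.17, edgeR adjusted p = 8.6e-05). In TPM all 6 Mperf15ko libraries were above all 6 Tak-1 libraries, a separation whose share among all genes was not counted.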
